A study of Ictalurus punctatus with 24 samples.

Results

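Livers of channel catfish (Ictalurus punctatus) fed a diet with 300 g of frass per kg of feed, named high frass, were compared with livers of fish fed 50 g per kg, named low frass. The comparison held 6 of the 24 RNA sequencing libraries of the study, chosen by diet with replicate 3 of each left out. These were high-frass replicates 1, 2 and 4 (pools A2, A8 and B6) and low-frass replicates 1, 2 and 4 (pools A1, A7 and B7). All fish were Marion strain fingerlings sampled at week 10, and the frass took the place of part of the soybean meal, wheat and corn of the feed, with fish meal kept constant. The high-frass feed also held less corn oil than the low-frass feed. Each library was made from livers of several fish pooled within 1 aquarium, so p-values measure the spread between pools, which may be partly technical. Replicate 3 of each frass diet was left out and is described at the end. The study left out the same libraries. The 4 control livers, from fish fed no frass (0 g/kg), entered the same fit to estimate the spread, and their levels are given for orientation.

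Frass is what remains after black soldier fly larvae are reared and removed: excreta, shed cuticle and uneaten substrate. The liver of a bony fish makes most plasma proteins, handles lipids, amino acids and iron, and takes part in the acute phase and interferon responses. Tripartite motif (TRIM) proteins, which reappear below, are a large family of mostly ubiquitin ligases with roles in innate immunity, and bony fish carry many near-identical copies of some TRIM genes side by side on a chromosome. In mammals TRIM16 acts in the response to damaged membranes and in autophagy.

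The high-frass libraries held 13249837, 15300996 and 13203655 counts and the low-frass libraries 13501074, 13959208 and 13784001, against 12076582 to 15604418 in the controls. Hepatocyte markers such as hpxa and fabp10a summed to 252600 to 297600 CPM (counts scaled to library size) in high frass and 261400 to 309300 CPM in low frass, and 16 of the 17 marker genes with a counted feature were detected (itih2 was at 0). The tissue also carried pancreatic acinar transcripts, which summed to 62080 to 107300 CPM in high frass and 52670 to 72680 CPM in low frass. Across the 7213 features tested, the Pearson r of log2 CPM between a high-frass and a low-frass library ran from 0.962 to 0.978, against 0.966 to 0.976 within high frass and 0.970 to 0.974 within low frass. By this r, libraries of different diets were as alike as libraries of the same diet. Differences in level between genes mostly set it, so it cannot show that the diets were alike. On the second principal component of the 10 livers (15.16% of the variance), high-frass pools lay at 8.45 to 25.7 and low-frass pools at -12.5 to 2.06. Controls ran there from -20.0 to 13.8. On the first (27.47%) the frass diets overlapped.

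The study's cutoffs, an adjusted p under 0.05 with more than a 2-fold difference, were applied to edgeR's quasi-likelihood test of high-frass against low-frass liver. With them 0 of 7213 features passed (0%), and the smallest Benjamini-Hochberg adjusted p of that test was 0.9998. At an unadjusted p under 0.05 the same test gave 169 features (2.34%), 76 higher (1.05%) and 93 lower (1.29%) in high frass, where evenly spread p-values would give 360.7. The study itself used DESeq2, against the control diet and with another method of adjustment. Here DESeq2 called 1 feature with the 3 diets in 1 fit, the TRIM16-like gene LOC124627534 (adjusted p = 0.00136). Fitted to the 6 libraries alone it called 11, with LOC124627534 not among them (adjusted p = 0.132 by DESeq2). The 11 were clu, abcc6a, prr15lb, LOC108266491, LOC108267255, LOC124627672, LOC108261553, LOC108261583, LOC108257613, LOC108261709 and LOC108262351. Of these, 3 lay in the chromosome 2 interval described below. With no count filter, edgeR called 71 features. Of these, 63 were tested with the filter, and 36 had an unadjusted p under 0.05 there. The smallest p without the filter was that of LOC108263175, whose value rested on 1 library, as given below. The median log2 fold change was -0.0039, with 3566 features higher and 3647 lower, and the median absolute log2 fold change was 0.181. Of the 2801 features with a mean of at least 10 CPM, 29 lay beyond 2-fold. The diets did not overlap for 253 features that were higher (3.51%) and 303 that were lower (4.20%). All features below are therefore described by their values and fitted differences. In the edgeR test that passed 0 of 7213, the adjusted p was 0.9998 or above for every one in liver. The words "higher" and "lower" compare high with low frass. In pooled tissue, fewer cells of a type and less RNA per cell cannot be told apart.

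Of the 76 features that were higher at an unadjusted p under 0.05, 12 lay together in 1 stretch of chromosome 2. Between positions 1200000 and 2400000 (Coco_2.0 assembly; bounds set after the values were seen), 28 of 134 counted features were tested, and 12 of them (42.9%) were higher and 0 lower, against 1.05% and 1.29% of all features tested. They made up 15.8% of the 76. Of 678 windows of 1.2 Mb tiled over the genome, this one held 12 such features and the next held 2. Since the window was picked for these values, this is a description and was not tested.

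**Figure D1:**
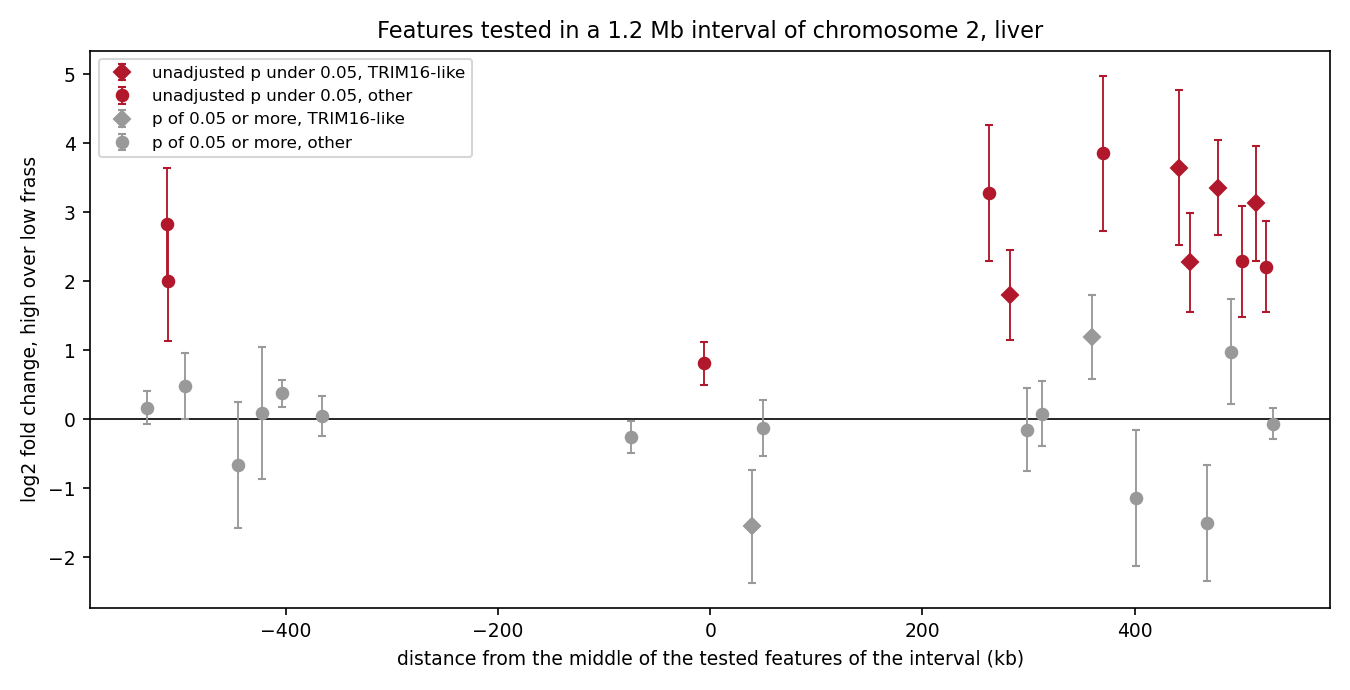
Log2 fold change, high over low frass, of the 28 features tested in the chromosome 2 interval, with bars of 1 standard error, against distance from the middle of the tested features in kb. The 12 features with an unadjusted p under 0.05 (red) lie between 0.81 and 3.85, and 9 of them sit in the last 270 kb, interleaved with 6 features between -1.50 and 1.19.

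The 12 genes spanned 1.05 Mb (1290336 to 2337565), with 9 of them in the last 270.0 kb, where 15 features were tested. Of the 12, 5 are TRIM16-like (LOC124627534, LOC108261709, LOC108262351, LOC128629447 and LOC128629432) and 7 are not. The 12 log2 fold changes ran from 0.81 to 3.85 with a median of 2.56. The 16 other features tested in the interval had a median of -0.01 and ran from -1.55 to 1.19, so features past and not past that p alternated along the chromosome.

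LOC124627534, a TRIM16-like gene of 1 transcript at 2286936 to 2291745, had the smallest p of the whole comparison. It had 6.82, 11.7 and 28.7 CPM in high-frass replicates 1, 2 and 4, against 0.751, 0.661 and 3.22 CPM in low-frass replicates 1, 2 and 4. The diets did not overlap, and replicate 4 was the highest of each diet. The log2 fold change was 3.36 ± 0.69 (SE), or 10.2-fold. The controls, at 2.29, 4.75, 4.0 and 7.66 CPM, lay between the diets but overlapped both. Leaving out single libraries gave log2 fold changes from 2.60 to 4.47.

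LOC108261709, the next TRIM16-like gene (2322411 to 2327607), had 4.98, 18.6 and 34.8 CPM in high frass against 1.09, 2.45 and 3.15 CPM in low frass. High-frass replicate 1 was the closest to low frass, without overlap, and the log2 fold change was 3.13 ± 0.84 (SE). Its controls spread from 1.41 to 19.9 CPM and overlapped both diets.

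LOC108262351 (2248466 to 2255759), also TRIM16-like, had 1.92, 4.83 and 5.44 CPM in high frass against 0.205, 0.198 and 0.559 CPM in low frass, a log2 fold change of 3.65 ± 1.13 (SE). The controls, from 0.265 to 16.9 CPM, overlapped both diets and reached above high frass. LOC128629447 (2260462 to 2265535) had 0.962, 2.86 and 6.09 CPM in high frass against 0.683, 0.661 and 0.699 CPM in low frass, so that the low-frass pools were nearly level and the high-frass pools were not. Its log2 fold change was 2.27 ± 0.72 (SE), or 1.51 without high-frass replicate 4.

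LOC128629432 (2089067 to 2097976), the most abundant TRIM16-like gene of the interval, had 12.6, 17.7 and 44.6 CPM in high frass against 6.83, 2.51 and 12.2 CPM in low frass. The margin between the diets was narrow, 12.6 against 12.2 CPM, and the log2 fold change was 1.80 ± 0.65 (SE), or 1.09 without high-frass replicate 4. It was also the interval gene with the clearest difference in the intestine of the same diets, described below.

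Among the 7 genes without the TRIM16 name, LOC108261588 (2177870 to 2183587) had the largest estimate of the interval. It had 4.90, 10.7 and 26.1 CPM in high frass against 0.0683, 0.925 and 1.89 CPM in low frass, a log2 fold change of 3.85 ± 1.12 (SE). LOC108257623 (2067804 to 2078623) had 14.2, 20.7 and 48.9 CPM in high frass against 0.546, 1.45 and 6.64 CPM in low frass, a log2 fold change of 3.28 ± 0.98 (SE). For both, the low-frass pools differed among themselves by more than 10-fold, and the lowest high-frass pool still stood above the highest low-frass pool.

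LOC128635125, the last of the 12, had 2.01, 4.70 and 8.88 CPM in high frass against 1.09, 0.529 and 1.75 CPM in low frass, and LOC108261249 had 1.22, 4.13 and 12.2 CPM against 0.751, 0.330 and 2.52 CPM. The second of these was the 1 gene of the 12 whose diets overlapped. At the other end of the interval, LOC108257613 (1290336 to 1308215) had 1.57, 5.97 and 6.59 CPM in high frass against 0.341, 0.397 and 1.26 CPM in low frass. LOC108257667 (1297637 to 1302794) lies within LOC108257613, and as reads were counted without regard to strand its values, 1.57, 0.889 and 1.22 CPM in high frass against 0.137, 0.132 and 0.629 CPM in low frass, may share a source with those of the longer gene. mrpl19 (1802953 to 1806127), a subunit of the mitochondrial ribosome, stood alone in mid-interval. It had 13.3, 15.2 and 17.4 CPM in high frass against 8.13, 5.75 and 12.3 CPM in low frass, the smallest log2 fold change of the 12 (0.81 ± 0.31, SE).

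**Figure D2:**
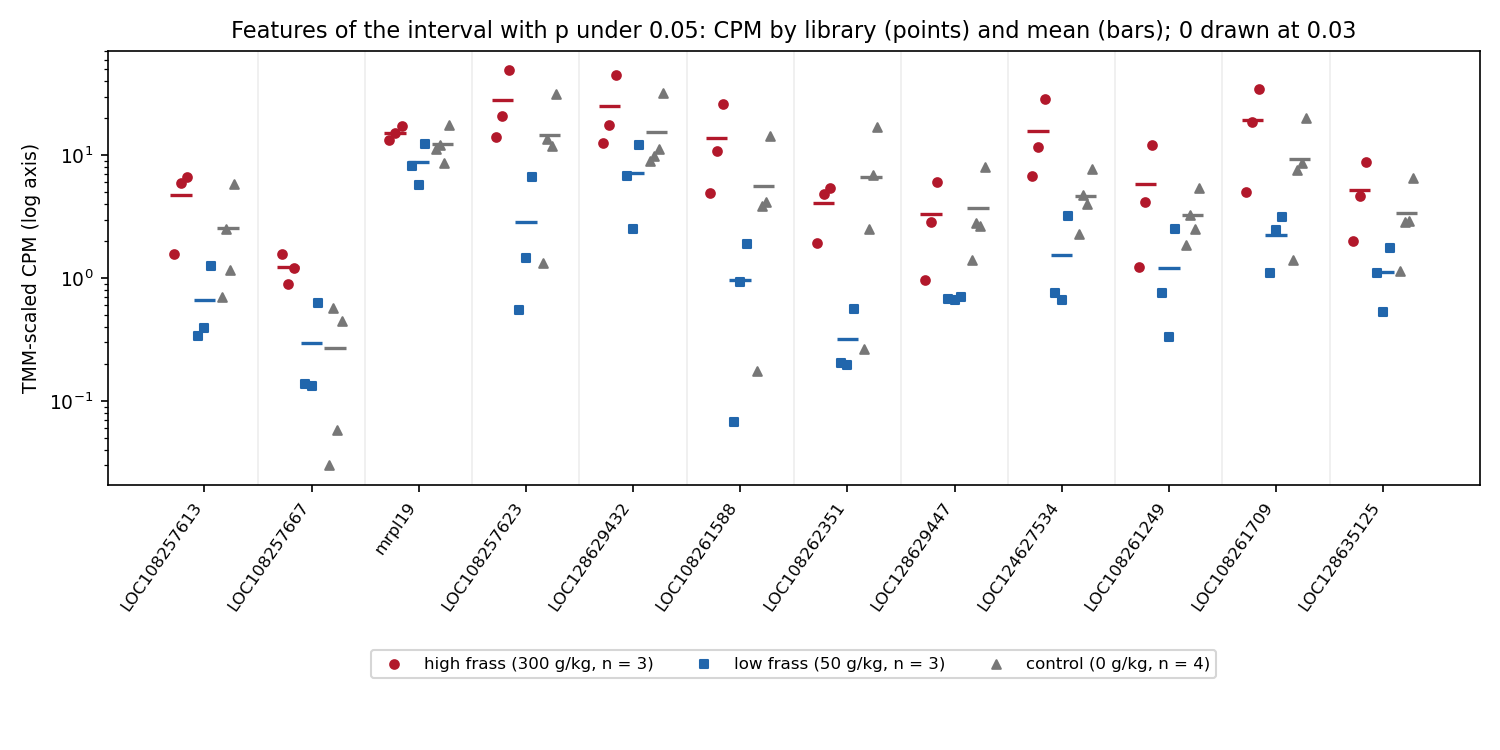
CPM (log axis) of the 12 interval features with an unadjusted p under 0.05, in genome order, in each high-frass (red), low-frass (blue) and control (grey) pool, with the mean of each diet as a bar. High-frass replicate 4 is the highest high-frass pool in 11 of the 12, low-frass replicate 4 the highest low-frass pool in all 12, and the controls overlap both diets in 10.

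The 12 genes ranked the pools of a diet in nearly the same order. High-frass replicate 4 was the highest of its diet in 11 of the 12 and high-frass replicate 1 the lowest in 11. Low-frass replicate 4 was the highest of its diet in 12 of 12. Control replicate 4 was the highest control in 11 and control replicate 1 the lowest in 11. Added up, the 12 gave 66.03, 118.0 and 240.9 CPM in high frass and 20.62, 15.99 and 46.76 CPM in low frass, and 30.87, 66.21, 64.58 and 166.2 CPM in control replicates 1 to 4. The sums of the frass diets did not overlap, the controls ran from within the low-frass range to within the high-frass range, and the highest pool of each diet was replicate 4. The control mean lay between the means of the frass diets for 9 genes, above both for 2 and below both for 1. Counts behind these values were modest, from 11 to 682 in a high-frass library and from 1 to 176 in a low-frass library. Reads from near-identical copies can be assigned to the wrong copy or lost, so the level of any single TRIM16-like gene is uncertain.

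Without high-frass replicate 4, 7 features of the interval were higher at p under 0.05, and leaving out the other libraries gave 9 to 13. A minimum of 10 counts in each of the 6 libraries left 16 of the features to test and 5 higher. Under every alternative in which they were tested, the 12 had a higher level in high frass.

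In the intestine of the same diets, replicate 3 of each frass diet was kept, unlike in liver. There, 891 of 10401 features had an unadjusted p under 0.05 (8.57%) and 0 an adjusted p under 0.05 by edgeR. All 12 interval genes were tested there, 6 were higher in high frass and 1 had a p under 0.05, with log2 fold changes from -0.62 to 3.28. That gene was LOC128629432, with 26, 19, 35 and 27 counts in high-frass intestine replicates 1 to 4 against 4, 2, 1 and 3 counts in low frass and 5, 3, 0 and 2 counts in controls. Its intestine log2 fold change was 3.28 ± 0.65 (SE), with an adjusted p = 0.567 by edgeR, and every high-frass pool stood above every other pool. The intestine levels of LOC124627534 were 11.2, 25.8, 30.9 and 37.7 CPM in high frass against 2.73, 48.3, 2.18 and 35.2 CPM in low frass, a log2 fold change of 0.25 ± 0.82 (SE). The low-frass intestines fell into a low and a high pair, and only the higher of the high pair, at 48.3 CPM, lay above every high-frass pool.

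By the name tripartite motif-containing protein 16 in the annotation, 12 genes of the channel catfish were taken as TRIM16-like. The family was chosen with earlier results of these data known and includes LOC124627534 of the study's liver lists. It is therefore no independent evidence of a direction. Of the 12, 9 were tested in liver, and 5 were higher and 0 lower at p under 0.05, against 1.05% and 1.29% of all features tested. These 5 are the ones described above. The 9 had a median log2 fold change of 1.80 against -0.0039 over all features tested. The median stayed between 1.09 and 2.30 when single libraries were left out. The 4 others were not past that p. LOC108261479, which lies among them at 2167548 to 2172759, had 3.76, 6.35 and 16 CPM in high frass against 1.43, 6.15 and 3.91 CPM in low frass (log2 fold change 1.19 ± 0.61, SE). LOC108257597, also in the interval, was lower at 0.35, 0.254 and 0 CPM against 0.410, 0.595 and 0.769 CPM (log2 fold change -1.55 ± 0.82, SE). The remaining pair lies outside the interval, LOC108278018 with a log2 fold change of -1.70 and LOC108278125 with -0.53.

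Outside the interval, the features with the smallest p and no overlap between the diets lay on several chromosomes, and included a pair of neighbours described below. The 6 that were higher were led by clu, which encodes clusterin, a secreted chaperone of plasma and lipoproteins. clu had 96.3, 81.6 and 129 CPM in high frass against 29.8, 41.2 and 57.0 CPM in low frass, with every high-frass pool also above the 4 controls (39.8 to 71.4 CPM). The log2 fold change was 1.26 ± 0.29 (SE), or 2.4-fold, and stayed between 1.07 and 1.53 when single libraries were left out.

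abcc6a encodes an ATP-binding cassette transporter of the liver cell membrane whose human counterpart guards against ectopic mineralization. It had 64.2, 66.5 and 83.6 CPM in high frass against 36.6, 19.96 and 35.0 CPM in low frass and 23.6, 17.8, 32.8 and 34.2 CPM in controls. High frass stood alone, with low frass at the level of the controls, and the log2 fold change was 1.23 ± 0.29 (SE).

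LOC108267255, annotated as a C-C motif chemokine 18, showed another order. It had 125, 151 and 181 CPM in high frass against 42.6, 34.6 and 81.7 CPM in low frass. The controls, at 138, 111, 64.9 and 177 CPM, ran from within the low-frass range to within the high-frass range. The log2 fold change was 1.52 ± 0.39 (SE). Macrophage and leukocyte markers, from 24 detected genes, summed to 129.5 to 147.1 CPM in high frass and 126.8 to 145.9 CPM in low frass, so the 2 diets overlapped in these markers (9 of the 33 counted genes, lcp1 and csf1rb among them, were at 0).

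zc3h14, which encodes a poly(A)-binding zinc finger protein and lies on chromosome 2 at 343593 to 349520, well before the interval, had 9.97, 9.27 and 11.9 CPM in high frass against 4.64, 6.08 and 6.78 CPM in low frass. Its log2 fold change of 0.83 ± 0.22 (SE) was small but even. zanl, a zonadhesin-like gene, had 7.70, 7.43 and 19.2 CPM in high frass against 2.32, 6.15 and 3.91 CPM in low frass, with high-frass replicate 4 well above the other high-frass pools (log2 fold change 1.47 ± 0.42, SE, and 0.88 without that library).

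One pair of neighbours went in opposite directions. On chromosome 6, LOC108266491 (28606066 to 28610291) had 4.29, 5.52 and 7.09 CPM in high frass against 1.37, 1.65 and 1.75 CPM in low frass, a log2 fold change of 1.82 ± 0.55 (SE). LOC124627672 (28640796 to 28648125) had 78.4, 103 and 63.8 CPM in high frass against 221, 176 and 165 CPM in low frass, a log2 fold change of -1.20 ± 0.30 (SE) and the smallest p of the features that were lower. Neither gene's diets overlapped, and for both the controls spread over the 2 diets, from 1.15 to 7.06 CPM and from 93.8 to 196 CPM.

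**Figure D3:**
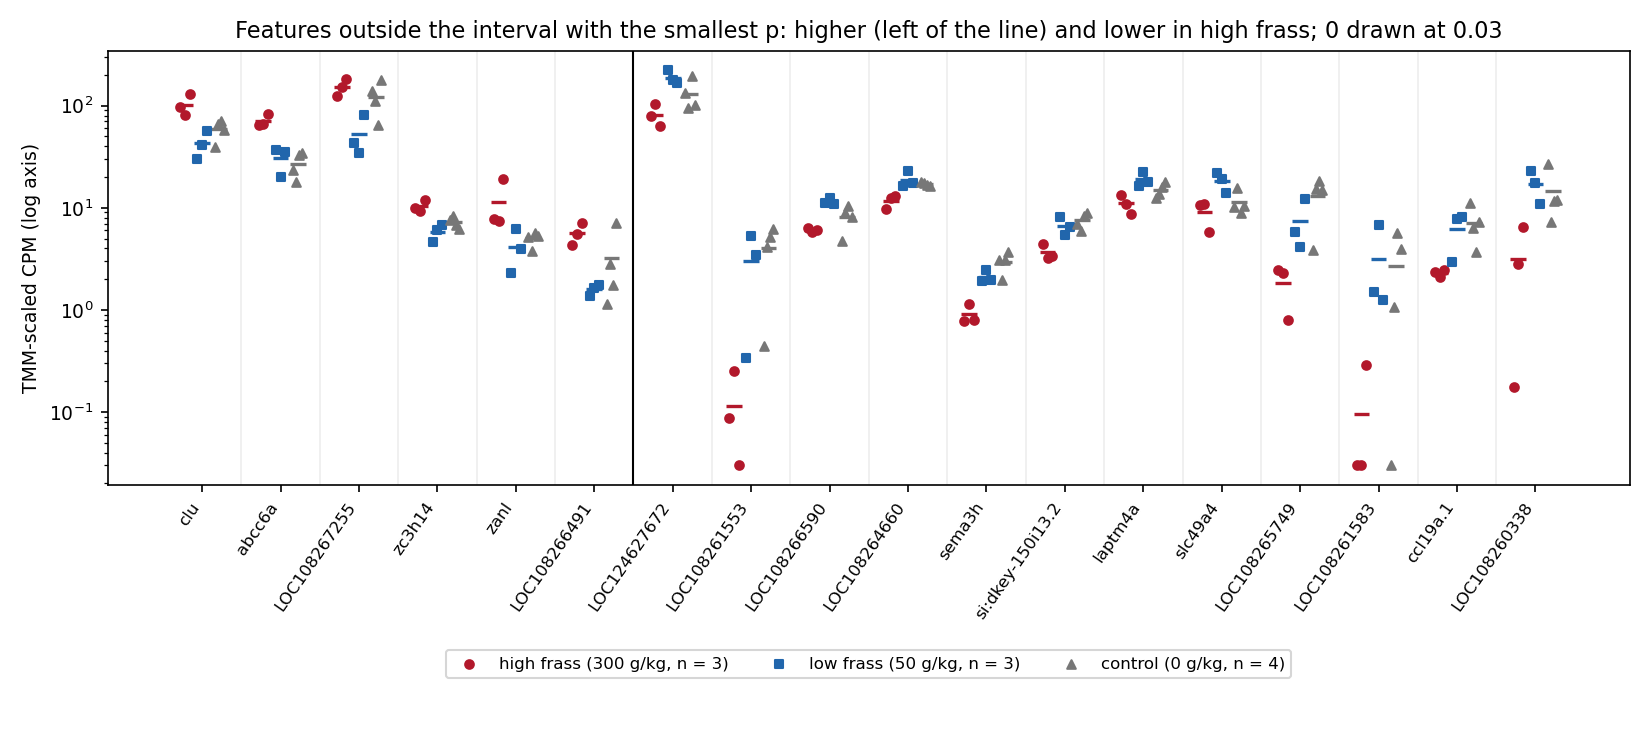
CPM (log axis) of the 18 features outside the chromosome 2 interval with the smallest p and no overlap between the frass diets, 6 higher (left of the line) and 12 lower in high frass, in each high-frass (red), low-frass (blue) and control (grey) pool, with diet means as bars. The 18 were picked for their separation, clu and abcc6a stand above low frass and controls alike, and the controls of LOC108267255 run from the low-frass into the high-frass range.

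The 12 features with the smallest p that were lower in high frass were of several kinds. LOC108266590 and LOC108264660 had tight pools: LOC108266590 had 6.30, 5.84 and 6.02 CPM in high frass against 11.1, 12.6 and 10.9 CPM in low frass, and LOC108264660 had 9.71, 12.5 and 12.97 CPM against 16.2, 22.7 and 17.6 CPM. Their log2 fold changes were -0.93 ± 0.26 and -0.68 ± 0.19 (SE), or 1.9-fold and 1.6-fold lower. sema3h, a secreted semaphorin of axon and vessel guidance, had 0.787, 1.14 and 0.788 CPM in high frass against 1.91, 2.45 and 1.96 CPM in low frass (log2 fold change -1.20 ± 0.34, SE). Its 4 controls, 1.94 to 3.68 CPM, were with or above low frass.

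Membrane carriers followed. si:dkey-150i13.2, annotated as a mitochondrial carnitine/acylcarnitine carrier, which brings fatty acids into mitochondria, had 4.37, 3.24 and 3.37 CPM in high frass against 8.19, 5.42 and 6.43 CPM in low frass (log2 fold change -0.87 ± 0.25, SE). slc49a4, a solute carrier, had 10.7, 10.9 and 5.73 CPM in high frass against 22.0, 19.2 and 14.0 CPM in low frass (log2 fold change -1.02 ± 0.29, SE). laptm4a, a lysosomal membrane protein, had 13.5, 10.9 and 8.74 CPM in high frass against 16.2, 22.5 and 18.03 CPM in low frass (log2 fold change -0.78 ± 0.22, SE). The controls lay with low frass for the carnitine carrier (5.97 to 8.94 CPM) and mostly with high frass for slc49a4 (8.93 to 15.6 CPM).

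ccl19a.1, a chemokine that guides lymphocytes and dendritic cells, ran against LOC108267255: it had 2.36, 2.095 and 2.44 CPM in high frass against 2.94, 7.73 and 8.04 CPM in low frass and 3.71 to 11.2 CPM in controls. The high-frass pools were level and below all 7 other pools, and the log2 fold change was -1.44 ± 0.44 (SE). LOC108265749, annotated as a phosphatidylethanolamine-binding protein 4, had 2.45, 2.29 and 0.788 CPM in high frass against 5.80, 4.16 and 12.1 CPM in low frass (log2 fold change -2.0 ± 0.60, SE). LOC108260338 had 0.175, 2.79 and 6.45 CPM in high frass against 22.7, 17.5 and 10.9 CPM in low frass, with a wide spread within high frass.

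Some of the most negative estimates rested on few counts or on 1 library. LOC108261553, annotated as titin, had 1, 4 and 0 counts in high frass against 5, 80 and 49 in low frass and 5, 57, 90 and 83 in controls. Muscle markers, with 14 of 24 counted genes detected and ttn.1 and ttn.2 at 0, summed to 7.124 to 13.56 CPM in high frass, 2.518 to 7.522 CPM in low frass and 1.076 to 23.07 CPM in controls. The part of muscle in the values of LOC108261553 was not tested. LOC108261583 had 0, 0 and 4 counts in high frass against 22, 102 and 18 in low frass and 0, 15, 98 and 52 in controls. The most negative value of the table, LOC108263175 at -8.45 and named after its values were seen, rested on 1 library: it had 34.3 CPM in low-frass replicate 2 and at most 0.280 CPM in the other 5 libraries. prr15lb, also named after its values were seen, had 0.262, 0.952 and 0.143 CPM in high frass against 2.53, 3.90 and 3.56 CPM in low frass, and was among the 11 that DESeq2 called on the 6 libraries.

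The 15 lists of liver pathways held 445 tested features, of which 7 were higher and 3 lower at p under 0.05 (2.25%), near the 2.34% of all features tested. List medians lay between -0.16 and 0.15 on the log2 scale, and 8 of the 15 medians changed sign when a single library was left out.

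Plasma protein genes past that p were about as frequent as features past it in the whole comparison. Of the 40 acute phase and complement features, 1 was higher and 0 lower (2.5%, against 2.34% of all features tested), with a median log2 fold change of 0.15. cp encodes ceruloplasmin, the copper-carrying ferroxidase of plasma, and had 1801, 1797 and 2099 CPM in high frass against 1290, 1319 and 1509 CPM in low frass (log2 fold change 0.47 ± 0.18, SE). Its pools were tight within each diet. leap2, a liver antimicrobial peptide, had 55.2, 4.95 and 10.9 CPM in high frass against 6.90, 3.04 and 12.9 CPM in low frass, so that replicate 1 alone set its log2 fold change of 1.63 (0.06 without it). hamp encodes hepcidin, the peptide hormone of iron control, and had 1.05, 63.7 and 11.03 CPM in high frass against 10.3, 195 and 32.4 CPM in low frass (log2 fold change -1.64 ± 1.15, SE). The diets overlapped widely, and replicate 2 was the highest pool of each. The log2 fold change of hamp turned to 0.25 without low-frass replicate 2 and was -3.69 without high-frass replicate 2.

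The 13 iron and heme features had a median of -0.07, with 0 higher and 1 lower (7.69%, against 2.34% of all features tested). slc40a1 encodes ferroportin, the iron exporter that hepcidin removes from the membrane. It had 716, 598 and 428 CPM in high frass against 1225, 856 and 710 CPM in low frass (log2 fold change -0.68 ± 0.28, SE), with high-frass replicate 1 just above low-frass replicate 4, and -0.42 without low-frass replicate 1. fth1a, a ferritin subunit, had a log2 fold change of 0.05 ± 0.25 (SE).

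The 4 lists of lipid metabolism had 0 features at p under 0.05 in either direction. The medians were -0.03 for 25 lipoprotein features, -0.16 for 17 of fatty acid synthesis and storage, 0.0003 for 22 of fatty acid oxidation and -0.15 for 20 of cholesterol and bile acid. apoa2, an apolipoprotein of high-density particles, had 8487, 8880 and 6661 CPM in high frass against 8955, 19822 and 8948 CPM in low frass (log2 fold change -0.65 ± 0.38, SE); the pools did not overlap, but low-frass replicate 2 set most of the difference (-0.16 without it). lipca, the hepatic lipase, had 206, 192 and 58.2 CPM in high frass against 236, 156 and 161 CPM in low frass (log2 fold change -0.27 ± 0.41, SE), and the value turned to 0.12 without high-frass replicate 4. hmgcra, the rate-limiting enzyme of cholesterol synthesis, had a log2 fold change of 0.16 ± 0.35 (SE), and abcb11b, the bile salt export pump, -0.40 ± 0.21 (SE).

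The 59 amino acid and nitrogen features (median 0.11) and the 35 glucose and glycogen features (median 0.07) likewise had 0 at p under 0.05. pah, the enzyme that turns phenylalanine into tyrosine, had 411, 258 and 748 CPM in high frass against 180, 263 and 280 CPM in low frass (log2 fold change 0.97 ± 0.48, SE), and high-frass replicate 2 lay below 2 of the low-frass pools. Without high-frass replicate 4 the value was 0.48. bhmt, which methylates homocysteine from betaine, had a log2 fold change of 0.30 ± 0.52 (SE). In the growth list (29 features, median 0.07, 0 at p under 0.05) igf1, the insulin-like growth factor made by liver, had 10.1, 5.65 and 15.3 CPM in high frass against 4.71, 5.62 and 6.01 CPM in low frass (log2 fold change 0.92 ± 0.44, SE). High-frass replicate 2 lay between the low-frass pools, and without high-frass replicate 4 the value was 0.54.

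Of 27 features of xenobiotic and metal response, 2 were higher (abcc6a and LOC108267534) and 1 was lower (11.1%, against 2.34% of all features tested), with a median of 0.10. LOC108267534 is annotated as cytochrome P450 26B1, which breaks down retinoic acid, and had 11.6, 8.32 and 19.8 CPM in high frass against 7.24, 6.68 and 7.55 CPM in low frass (log2 fold change 0.89 ± 0.37, SE, and 0.49 without high-frass replicate 4). mt2, a metallothionein that binds zinc and copper, was the lower one. It had 195, 318 and 424 CPM in high frass against 1161, 436 and 496 CPM in low frass and 1365, 488, 403 and 1323 CPM in controls (log2 fold change -1.16 ± 0.53, SE). Low-frass replicate 1 carried much of it, and without that library the log2 fold change was -0.57.

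Among 61 chaperone and unfolded protein response features (median 0.05), 2 chaperones of the endoplasmic reticulum were higher and 0 features lower (3.28%, against 2.34% of all features tested). pdia4, a disulfide isomerase, had 41.7, 30.8 and 28.7 CPM in high frass against 22.5, 20.8 and 23.1 CPM in low frass (log2 fold change 0.61 ± 0.20, SE). hsp90b1, the Hsp90 of the same compartment, had 268, 173 and 245 CPM in high frass against 169, 132 and 138 CPM in low frass (log2 fold change 0.64 ± 0.27, SE). Both were free of overlap, hsp90b1 by a narrow margin of 173 against 169 CPM. The cytosolic hsp90ab1 had a log2 fold change of -0.06 ± 0.20 (SE). At any p, 36 of the 61 features were higher and 25 lower. The 39 immediate early features (median 0.06) and the 19 cell cycle features (median -0.13) had 0 at p under 0.05, with junbb, an early transcription factor, at -1.51 ± 0.69 (SE).

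The 24 interferon-stimulated features had a median of -0.11 and 0 at p under 0.05. The genes of the study's liver list were among them. mxa, an antiviral GTPase, had 0.700, 1.27 and 0.860 CPM in high frass against 1.57, 1.59 and 0.559 CPM in low frass, with all 4 controls higher than either (2.03 to 5.29 CPM). LOC108256873, an interferon-induced protein 44, had 1.66, 3.75 and 3.08 CPM in high frass against 6.01, 4.49 and 1.96 CPM in low frass (log2 fold change -0.54 ± 0.66, SE), and LOC108263260, of the interferon alpha-inducible protein 27 group, had a log2 fold change of -0.53 ± 0.68 (SE). The frass diets overlapped for all 3 genes.

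Of the 15 features tested from the toll-like receptor, cytokine and antigen panel, 2 were higher and 1 was lower (median 0.02): both chemokines above and lysc. Together these made up a larger share of the panel than the 2.34% of all features tested, in a list of only 15 features. lysc, a C-type lysozyme that cuts bacterial cell walls, had 1.14, 3.81 and 1.65 CPM in high frass against 1.23, 0.198 and 0.559 CPM in low frass, from 13, 60 and 23 against 18, 3 and 8 counts (log2 fold change 1.74 ± 0.61, SE). High-frass replicate 1 lay below low-frass replicate 1, and the value was 1.07 without high-frass replicate 2. The macrophage and leukocyte markers given above overlapped between the diets. The only toll-like receptor with enough counts was tlr-5, with a log2 fold change of 0.02 ± 0.55 (SE). b2ml, the light chain of class I antigen presentation, had 0.19 ± 0.19 (SE).

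**Figure D4:**
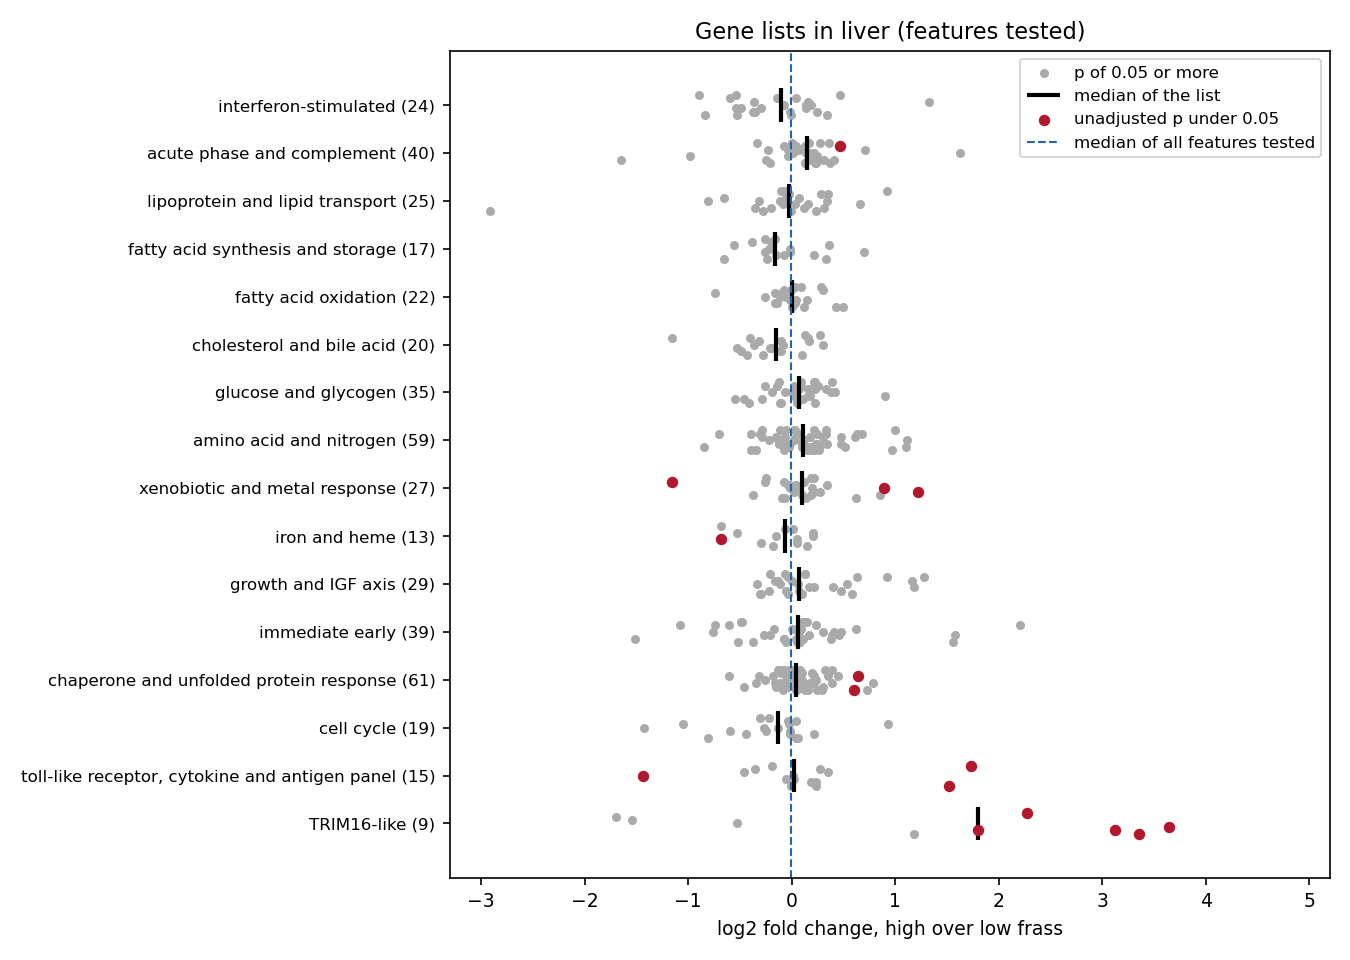
Log2 fold change, high over low frass, of every tested feature in the 15 pathway lists and the TRIM16-like family (number tested in brackets), with list medians as black bars and the median of all features tested as a dashed line. The 15 pathway medians lie within 0.16 of 0, and the TRIM16-like median is 1.80.

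The most abundant transcripts were of both liver and pancreas. hpxa, which encodes hemopexin, the heme scavenger of plasma, had 186621, 170048 and 136877 CPM in high frass against 132428, 174963 and 170984 CPM in low frass (log2 fold change 0.05 ± 0.23, SE). fabp10a, the liver fatty acid-binding protein of fish, had a log2 fold change of -0.11 ± 0.22 (SE), and COX1, a mitochondrial cytochrome c oxidase subunit, -0.09 ± 0.30 (SE). The values of hpxa, fabp10a and COX1, like those of hmgcra, fth1a and hsp90ab1 above, changed sign when single libraries were left out. The digestive enzymes ela2l, prss1 and cpb1, made by acinar cells, had log2 fold changes of 0.48 ± 0.31, 0.50 ± 0.29 and 0.43 ± 0.32 (SE), and each was highest of the 6 in high-frass replicate 1. ela2l, an elastase, had 44333, 23607 and 29854 CPM in high frass against 25262, 18828 and 26155 CPM in low frass. Without that replicate the log2 fold changes of ela2l and prss1 were 0.19 and 0.13. The part of acinar tissue in other differences was not tested.

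**Figure D5:**
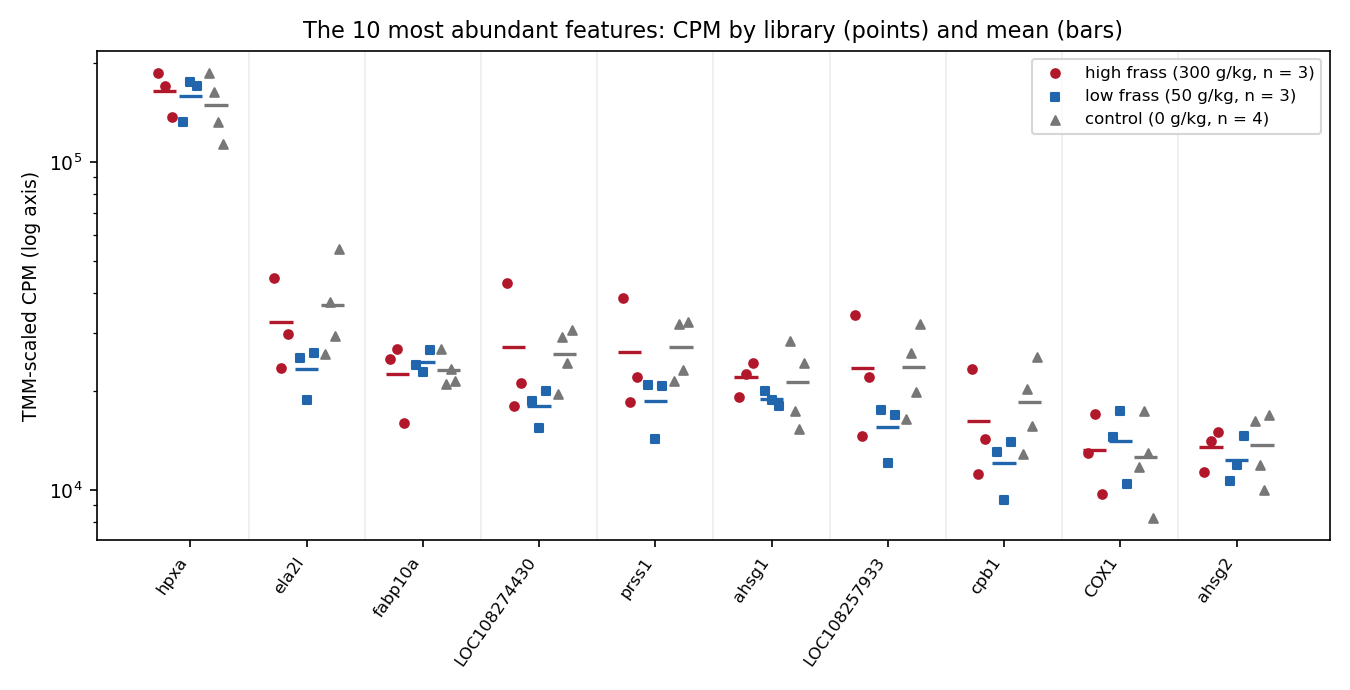
CPM (log axis) of the 10 most abundant features in each high-frass (red), low-frass (blue) and control (grey) pool, with diet means as bars. Hepatocyte genes such as hpxa and ahsg1 overlap between the diets, and the highest high-frass point of the acinar genes ela2l, prss1 and cpb1 is replicate 1 in each case.

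The libraries left out stood apart from the rest. Low-frass replicate 3 had counts in 15707 features, against 10842 to 11357 in the other low-frass livers, and its enterocyte markers summed to 12520 CPM, against 36.74 to 62.9 CPM there. Its hepatocyte markers summed to 1540 CPM, against 261400 to 309300 CPM in the other low-frass livers. Its acinar markers summed to 363.2 CPM, against 52670 to 72680 CPM. High-frass replicate 3 had the fewest counts of the livers, 10494755, and the paper removed it for a low transcript integrity score. The 12 interval genes summed to 114.6 CPM in high-frass replicate 3 and 131.6 CPM in low-frass replicate 3, scaled to library size only. Gene by gene, 8 of the 12 were higher in the left-out high-frass library, compared with 14.5% of the 7213 features tested. LOC124627534 was not among the 8, at 4.29 CPM in high-frass and 44.6 CPM in low-frass replicate 3. Of the 18 features named outside the interval, 9 differed between the left-out libraries in the direction of the other 6. Since the left-out libraries also differed widely in hepatocyte and acinar markers, neither count can show a direction of diet. With both replicates put back, 433 features had an unadjusted p under 0.05, 53 higher and 380 lower, and 0 passed the adjustment by edgeR.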

How the data were processed

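The authors trimmed the reads with Trimmomatic 0.38, aligned them to the Coco_2.0 genome with STAR 2.7.8a and counted exon features by parent with HTSeq 0.9.0, without strand and in union mode. The deposited values were raw counts, with no normalization or filter. Most of the 63022 features are transcripts, so reads in exons shared by transcripts were left uncounted and genes of several transcripts read low. Of these, 60775 were joined to a gene of the RefSeq table of the same assembly.

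The counts were fitted with edgeR 4.0.16 (R 4.3.3, limma 3.58.1), using TMM normalization, filterByExpr (minimum count 10), and quasi-likelihood tests of the contrast high minus low frass over 10 liver libraries in 3 diets. The common biological coefficient of variation was 0.313. The SE of a fold change was taken from its size and its quasi-likelihood F statistic, and p-values were adjusted over all 7213 features. Sums over cell type markers and values of the left-out libraries are CPM scaled to library size only. Other per-library values are TMM-scaled CPM, and fold changes come from the fit. Since 3 pools against 3 cannot go below p = 0.1 in an exact two-sided permutation test, no such test was used. On simulated counts of this comparison with 200 of 7213 features changed 4-fold, the test recovered 77.0% to 86.4%, with 0 to 2 calls when none was changed. These counts were drawn from the fitted dispersions, with equal means between diets apart from the 200. In the real counts the 10.2-fold difference of LOC124627534 had an adjusted p of 0.9998 by edgeR. The simulated share therefore does not give the share of real 4-fold differences that would be called.

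Named features were the 12 per direction with the smallest p, no overlap and at least 1 CPM in the higher diet, the most abundant and 3 smallest-p features of each pathway list, genes of the study's liver lists, and the 10 most abundant. Members and lists were chosen with earlier results of these data known. Alternatives were DESeq2 1.42.0 with 3 diets or the 6 libraries, its size factors, other count filters, the 6 libraries in edgeR, the replicate number or pool letter as a block, robust dispersions, gene sums, the left-out libraries put back, and each replicate left out. The intestine counts were fitted the same way, over 12 libraries. Sequences were not analysed here.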

Additional observations from a re-analysis of the deposited data

Results flagged for a closer look

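Low-frass liver replicate 3, left out of the comparison, had 15707 features with a count, against 10842 to 11357 in the other 3 low-frass livers. The share of counts in the 10 most abundant features was 11.23% in that library and 32.31% to 35.41% in those livers. Enterocyte markers summed to 12520 CPM in that library, against 37.17 to 73.1 CPM in the control livers. Its hepatocyte markers summed to 1540 CPM, against 220200 to 302900 CPM in the control livers. Control replicate 4 stood apart from the other controls for apoa2, at 28770 CPM against 12930 to 14170 CPM, and for dnajc27, at 47.6 CPM against 5.182 to 10.9 CPM. dnajc27 itself had 3.85, 3.30 and 4.73 CPM in high frass against 4.10, 6.81 and 5.17 CPM in low frass. Of 55 groups of 4 libraries examined, 4 held such a library, and chance gives about 1 in 20.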

How the results depend on the processing

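The count of DEGs, 0 in the edgeR fit of all 3 diets, was 1 with DESeq2 and the 3 diets, 11 with DESeq2 on the 6 libraries, 71 with no count filter (36 of them at p under 0.05 with the filter) and 1 with a replicate block, LOC124627534 (adjusted p = 0.0185). It stayed at 0 under every other alternative, each library left out included. The 169 features at an unadjusted p under 0.05 became 549 with no count filter, 433 with all 12 livers and 367 with low-frass replicate 3 put back. Leaving out single libraries gave 128 (without low-frass replicate 2) to 257 (without low-frass replicate 4), with 256 without high-frass replicate 2. The replicate block gave 165. Deviations from the diet mean correlated at r of -0.07, 0.13 and 0.05 between same-numbered high-frass and low-frass pools. Between pools of other numbers r ran from -0.21 to 0.13. These few values cannot show whether the numbers pair the pools. With all 12 livers the log2 fold change turned to -3.38 for zanl, 0.32 for laptm4a and -0.22 for pdia4. It was -3.00 for zanl and -0.26 for pdia4 with low-frass replicate 3 put back, and 0.12 for laptm4a with high-frass replicate 3 put back. Hepatocyte markers summed to only 1540 CPM in low-frass replicate 3, and the cause of these changes of sign was not tested. Of 2359 values of single features under the alternatives, 64, from 32 of 104 features, had another sign than the fold change of the report, and 6 of these, given above, were of features with an unadjusted p under 0.05. For 15 features the sign changed when 1 of the 6 libraries was left out. The median standard error was 0.313 on the log2 scale, and 0.242 at 10 CPM or more. No difference passed the adjustment in the edgeR fit of all 3 diets at these errors, the 10.2-fold one of LOC124627534 included, which does not show that the diets were alike.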
